A study of Drosophila melanogaster with 3 samples.

Results

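The genes described are 10 germline genes of the PIWI-interacting RNA (piRNA) pathway, piwi, aub, AGO3, vas, spn-E, cuff, rhi, del, qin and tej, of 17896 annotated genes on the 6 chromosome arms that hold deposited regions. They were taken by name from a list, without a cut on any measured value, and located in the dm6 genome annotation. This list and the other gene lists used below were chosen with earlier results of these data known. A chromatin immunoprecipitation (ChIP-seq) of CG1602, a zinc finger protein, was examined at them. The flies carried CG1602 with green fluorescent protein (GFP) at its C terminus, and anti-GFP antibody precipitated the fusion from embryos of mixed sex aged 0 to 24 h. There were 3 biological replicates of this 1 group, compared with a shared control and with no second condition. The promoter that drives the transgene is not given in the sources used here, and chromatin came from whole embryos, so germ cells and somatic cells cannot be told apart.

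piRNAs are small RNAs that guide Argonaute proteins of the PIWI clade to transposon transcripts and so protect the germ line. In fruit flies, precursors are transcribed from clusters marked by the Rhino, Deadlock and Cutoff proteins. They are exported to the nuage, a perinuclear granule, where Aubergine and Argonaute 3 amplify piRNAs in the ping-pong cycle with helicases and Tudor domain proteins. Piwi itself enters the nucleus and silences transposons there. Much of this machinery is loaded into the egg by the mother, and the zygotic germ line of the embryo is a small group of pole cells.

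A region was assigned to a gene when its summit lay inside the gene or within 2 kb of one of its transcription start sites (TSS). Regions came from 5 lists, 1 for each replicate (17580, 27164 and 18386 regions), 1 from the pooled replicates (16640) and 1 filtered by irreproducible discovery rate (IDR, 4599 peaks), which held exactly the strongest pooled regions. Except in the IDR list, weak background regions are included by design. Signal is the authors' value for each region relative to the control, on a scale that is not given, so it was compared only within a list, and rank 1 is the strongest region of a list. Read depth is unknown.

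CG1602-GFP was found just upstream of 4 of the 10 genes, cuff, piwi, spn-E and vas. The other 6 held no IDR peak. Of all annotated genes 27.9% held an IDR peak by the same rule, and with 10 genes a single gene moves the share by 10 points, so the count alone does not set the 10 genes apart from that background. In all 4 the summit was within 500 bp of a start, as in 17.2% of all genes. The number of IDR peaks was 5, since piwi held 2.

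The DNA under the peaks of piwi, vas and spn-E, and under the region of del that just missed the IDR list, is shown so that the bases at these sites can be compared with the motif matches and base composition given next. Each sequence is dm6 reference from RefSeq, read 5′ to 3′ on the coding strand of the named gene, within 100 bp of the pooled summit. The windows are chr2L:10987502-10987702 (minus strand) and chr2L:10986259-10986459 (minus) for piwi, chr2L:15061495-15061655 (plus) for vas, cut short before the TSS, chr3R:15837147-15837347 (plus) for spn-E and chr2L:21149155-21149355 (minus) for del. Capitals mark matches, on either strand, to 6 short motifs, the DNA replication-related element (DRE, TATCGATA), the GAGA motif GAGAGAG (read as CTCTCTC on the other strand), the TATA box TATAAA (read as TTTATA there), the E-box CAGCTG, the Motif 1 core GGTCACAC and a site of the germline factor Ovo (TAAC and GT with 1 base between).
piwi, upstream: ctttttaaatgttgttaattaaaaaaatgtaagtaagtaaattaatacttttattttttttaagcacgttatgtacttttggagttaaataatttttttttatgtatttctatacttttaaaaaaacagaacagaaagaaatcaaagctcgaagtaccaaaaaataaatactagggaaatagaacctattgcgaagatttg
piwi, intron: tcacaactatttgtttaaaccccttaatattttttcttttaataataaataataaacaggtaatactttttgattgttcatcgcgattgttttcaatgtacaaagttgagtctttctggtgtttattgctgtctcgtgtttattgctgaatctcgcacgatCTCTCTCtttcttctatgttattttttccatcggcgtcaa
vas: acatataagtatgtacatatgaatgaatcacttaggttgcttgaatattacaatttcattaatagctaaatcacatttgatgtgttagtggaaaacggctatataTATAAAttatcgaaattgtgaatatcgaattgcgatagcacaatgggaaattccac
spn-E: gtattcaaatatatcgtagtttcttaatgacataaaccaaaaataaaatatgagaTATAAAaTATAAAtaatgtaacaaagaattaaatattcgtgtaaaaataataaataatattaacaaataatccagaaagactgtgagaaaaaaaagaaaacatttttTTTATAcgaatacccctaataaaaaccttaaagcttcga
del: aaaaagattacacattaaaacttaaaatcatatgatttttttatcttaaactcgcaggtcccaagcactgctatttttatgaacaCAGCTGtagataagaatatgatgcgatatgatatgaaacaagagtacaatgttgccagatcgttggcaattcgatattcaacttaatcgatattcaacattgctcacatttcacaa

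The upstream window of piwi held no match to any of the 6 motifs. The window within 100 bp of the cuff summit, not printed here, held none either. The piwi intron window held the GAGA motif, the vas window TATAAA once, the spn-E window TATAAA in 3 places, and the del window an E-box. TATAAA was present at 39.7% of all 4599 IDR summits, the E-box at 7.63%, GAGAGAG at 2.91%, the Ovo site at 8.70%, DRE at 3.33% and GGTCACAC at 1.74%. No summit window of the 5 IDR peaks held DRE, the Motif 1 core, the E-box or the Ovo site. From 250 bp before to 50 bp after the gene start, 4 of the 10 genes held the Ovo site (AGO3, rhi, qin and tej, against 12.2% of all genes). Those 4 are among the 6 genes without an IDR peak, but only 27.9% of all genes held one. The share among all genes with an Ovo site was not computed. A match describes the letters and does not show binding. In the same windows DRE was found at spn-E, qin and tej (7.58% of all genes), TATAAA at vas, spn-E, cuff and tej (43.9%), GGTCACAC at piwi (6.16%), and GAGAGAG and CAGCTG at none of the 10 (5.54% and 16.2%).

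The peaks of spn-E and piwi lay in DNA very poor in G and C. The spn-E window had a GC content of 20.4%, which only 0.478% of IDR summits matched or went below, and the upstream piwi window had 21.9% (1.44%). The median over all IDR summits was 33.3%. At spn-E, GC was 54.7% and 26.9% at 1000 bp on the left and right, and at piwi 31.8% and 51.7%. The windows of vas (29.9%), the piwi intron (31.3%), cuff (35.8%) and del (31.3%) lay nearer to the median. GC content was taken over the full 201 bp at each summit, also for vas, where the printed stretch of 161 bp is shorter. Sequence soft-masked as repeats in the reference covered 72.1% of the piwi window and 64.7% of the spn-E window. Whether masked sequence affected read mapping there was not tested.

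The nuclear Argonaute gene piwi (FBgn0004872, 2L, 10982205 to 10987420, minus strand) held 2 IDR peaks. The stronger (2L, 10987394 to 10987809) had its summit 182 bp upstream of the piwi TSS, a signal of 318 and rank 979 in the pooled list. In the replicate lists the matching region ranked 931, 899 and 990, with signals of 111, 80.5 and 135. All 3 replicates thus placed it within their strongest 5.38%, and their summits lay 136, 176 and 213 bp upstream of the TSS. CG12253 starts 386 bp from piwi on the other strand, so the peak lies between both starts, and piwi is the nearer of them by the pooled summit. In replicate 3 the summit was nearer to CG12253. A weak pooled region (signal 50.1, rank 11814) overlaps the peak and has its summit at the CG12253 start, so both share bases and match the same regions of replicates 2 and 3. In replicate 1 the weak region matched a separate and stronger one (signal 62.3, rank 2345), with its summit 47 bp from the CG12253 start.

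The second peak of piwi lay in an intron, 1061 bp downstream of the TSS (2L, 10986151 to 10986566, signal 112, rank 4420). It ranked 4655, 4848 and 4248 in the replicates, with signals of 35.9, 27.2 and 49.3. It is one of the weaker IDR peaks, and in replicates 1 and 2 it fell outside the strongest 4599 regions.

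The gene of the cytoplasmic ping-pong Argonaute Aubergine, aub (FBgn0000146, 2L), starts 14.1 kb from piwi, yet held no strong region. Its pooled region sat at the TSS, 4 bp upstream, with a signal of 46.6 and rank 13271 of 16640. Replicate 3 had a region there (signal 25.6, rank 9744). Replicate 2 had one at the far end of the gene instead (rank 12198), and replicate 1 had none at aub. No site of aub was thus shared by all replicates, although aub, like piwi, has a divergent neighbour, lectin-33A, at 596 bp.

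AGO3 (FBgn0250816, 3L, 23554593 to 23689640), whose product is the ping-pong partner of Aubergine, spans 135 kb and held no IDR peak and no region within 2 kb of a TSS. Its 3 pooled regions lay in introns, 24.9, 81.1 and 88.7 kb from the nearest own TSS, with signals of 51.6, 43.3 and 47.1 and ranks of 11280, 15054 and 13038. The first had a counterpart in replicates 2 and 3, the second in no replicate, and the third in replicate 1 (rank 6698). Of the 319 genes of 50 kb or more, 96.6% held a pooled region and 61.1% an IDR peak. The 2.22 pooled regions per 100 kb of AGO3 compare with a median of 8.02 in these long genes, and 20.4% of them had as few. Soft-masked repeats made up 37.4% of AGO3, against a median of 20.0% in long genes. The part of repeats in the low number of regions was not tested.

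**Figure D1:**
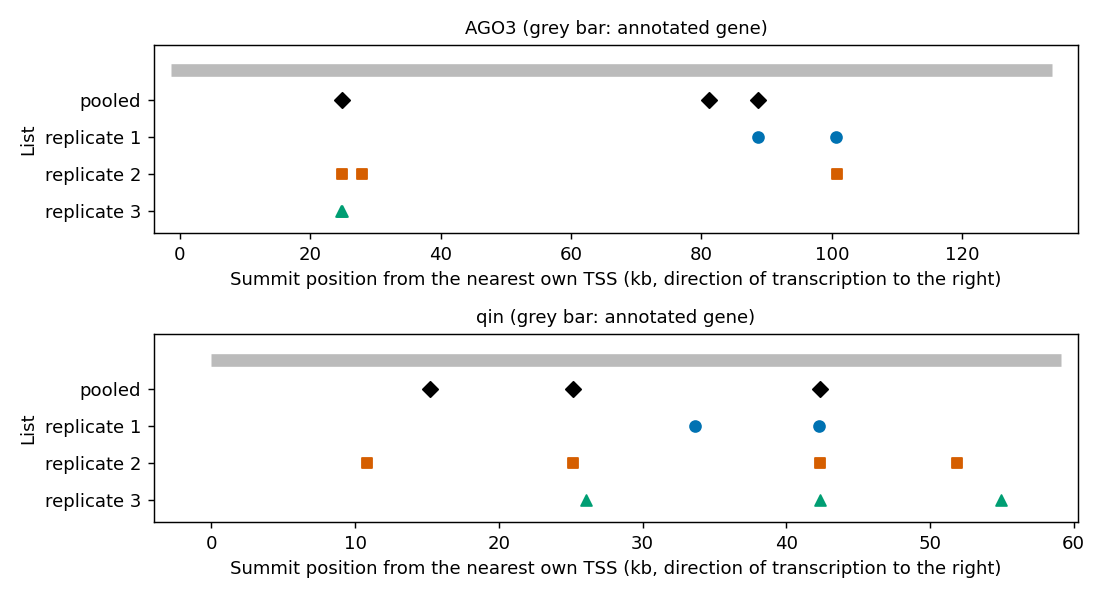
Summits along the 2 longest genes, AGO3 and qin, in kb from the nearest own TSS, with a row of symbols for the pooled list and for each replicate and a grey bar for the gene. At AGO3 no position carries a point in all 4 rows, and at qin the position near 42.4 kb does.

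The 3 genes of the Rhino complex, which licenses transcription of dual-strand piRNA clusters, differed widely. cuff encodes Cutoff, a Rai1-like protein that protects cluster transcripts from processing, and held the strongest peak of the 10 genes (FBgn0260932, 2R). The region (2R, 11885544 to 11885959) had a signal of 337 and rank 878, with the summit 315 bp upstream of the TSS. In replicates 1, 2 and 3 it ranked 843, 1264 and 746, with signals of 117, 66.3 and 155. Summits of these matched regions fell within 32 bp of each other. CG13185 starts 482 bp away on the other strand, and its TSS is nearer to the summit, at 167 bp. Replicate 1 also had a weaker region that overlaps the peak (signal 31.0, rank 5529). Its summit lay 124 bp upstream of cuff, with no other TSS nearer. In the pooled ranking the peaks directly above and below, most like it in signal, were nearest to shep (signal 337.1) and sotv (signal 337.0).

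del encodes Deadlock, the adaptor between Rhino and the transcription machinery, and stood exactly at the limit of the IDR list. Its region (2L, 21149047 to 21149462) had rank 4600 and signal 108.153. The last IDR peak, in an intron of pum, had rank 4599 and signal 108.158. The summit lay 709 bp upstream of a del TSS, with no other TSS nearer. In replicates 2 and 3 it ranked 4404 and 4414 (signals 29.1 and 47.7), within the strongest 4599, and in replicate 1 it ranked 5599 (signal 30.6). A weaker pooled region overlaps it at 915 bp upstream (signal 61.2, rank 8946).

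rhi, the gene of the heterochromatin protein Rhino, had a single pooled region, 1731 bp upstream of its TSS (2R, 17635039 to 17635454), with a signal of 54.0 and rank 10575. All replicates held it, at ranks 12934, 22234 and 6683. The gene Oxp starts between this region and rhi, on the same strand as rhi, and its TSS is nearer, at 1080 bp. The region lies in the weaker part of every list except that of replicate 3.

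Among the nuage genes, both helicases held a peak. spn-E encodes a DExH-box helicase with a Tudor domain (FBgn0003483, 3R, 15837419 to 15844415). Its peak (3R, 15837039 to 15837454) had a signal of 183 and rank 2371, and ranks of 2983, 1563 and 2715 in the replicates (signals 51.9, 58.1 and 70.3). The summit lay 172 bp upstream of spn-E and 130 bp from ND-23, a gene of a respiratory complex I subunit that starts 302 bp away on the other strand. The nearer start was ND-23 in the pooled list and in replicate 3, spn-E in replicate 2, and at equal distance in replicate 1, so the peak cannot be given to either gene. A weaker pooled region overlaps the peak, with its summit 32 bp downstream of the spn-E TSS (signal 53.4, rank 10736). Replicates 2 and 3 had separate regions there, 59 and 13 bp downstream, and in replicate 1 it matched the same region as the peak. Another pooled region inside spn-E (signal 76.4, rank 6866) lay 23 bp from the TSS of Pbp45, a gene within spn-E. It was found in all replicates at ranks of 14842, 8346 and 6467.

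vas encodes the DEAD-box helicase Vasa, the classical germ cell marker (FBgn0283442, 2L, 15061656 to 15074311). Its IDR peak (2L, 15061387 to 15061802) lay 61 bp upstream of the TSS that vas shares with solo, a gene of meiotic chromosome cohesion, with a signal of 125 and rank 3819. The replicates ranked it 8475, 2931 and 3462, with signals of 22.4, 39.0 and 58.1. Replicate 1 stands apart here, with the region near the middle of its list (48.2%) against the strongest 10.8% and 18.8% of replicates 2 and 3. Other pooled regions lay 759 bp upstream, near the elongation factor gene TfIIS (signal 87.2), 583 bp downstream in an intron (78.8), and 6526 bp downstream near the nested gene vig (58.9). The last was found in replicates 2 and 3 and not in replicate 1, and the one at 583 bp in replicates 1 and 3 and not in replicate 2.

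The other nuage genes, qin and tej, both code for Tudor domain proteins and in the pooled list their strongest regions were below those of the helicase genes. qin, whose product keeps Aubergine and Argonaute 3 acting as a pair, spans 59.1 kb on 3R and held 3 pooled regions in introns, none within 2 kb of its TSS. The strongest (3R, 18633177 to 18633592, signal 85.9, rank 6014) lay 42.4 kb into the gene and ranked 4687, 10995 and 8179 in the replicates. The other 2 had ranks of 14241, with a counterpart in replicate 2 only, and 15936, with a counterpart in no replicate. tej, the gene of the Vasa-binding nuage factor Tejas, had a single pooled region 1714 bp upstream (signal 44.3, rank 14443), present in the replicates at ranks of 16088, 18344 and 16543. Neither gene reached the IDR limit in the pooled list.

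**Figure D2:**
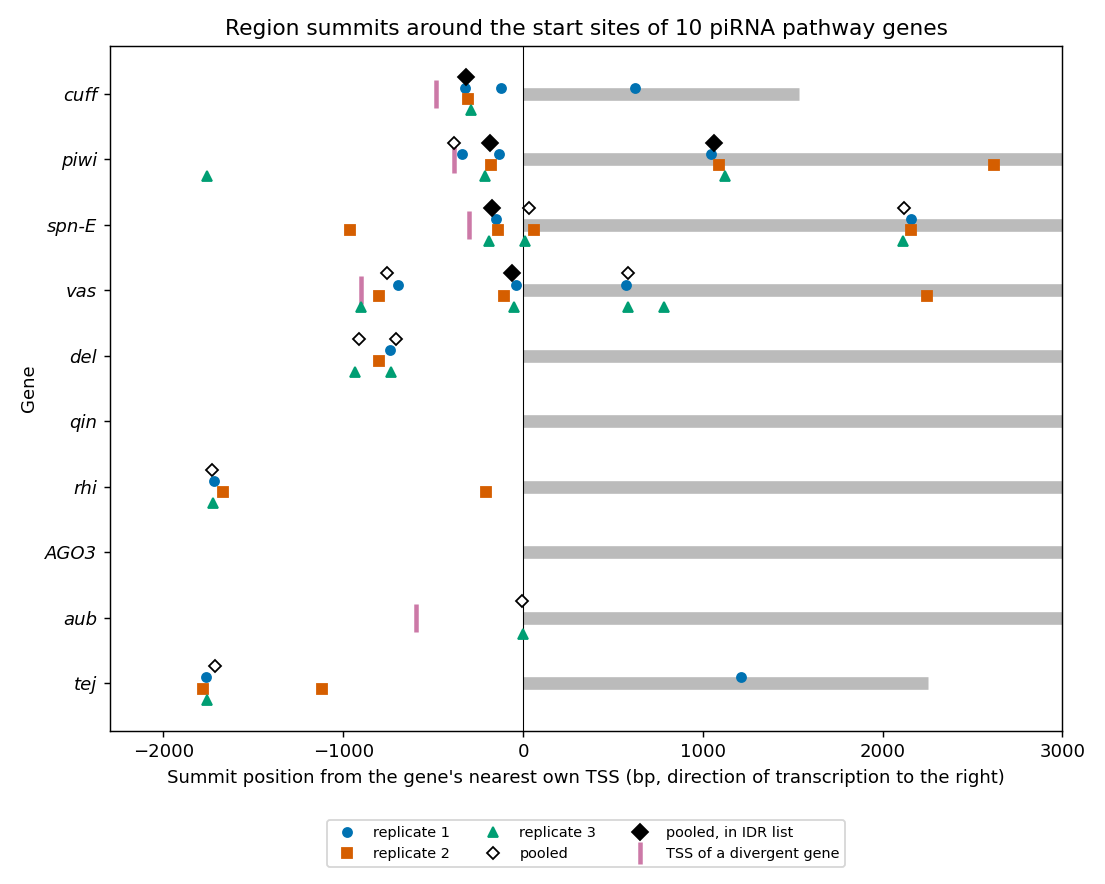
Summits from 2 kb upstream to 3 kb downstream of the start sites of the 10 genes, in bp from the nearest own TSS, ordered by the strongest pooled region. Filled diamonds are IDR peaks, open diamonds other pooled regions, coloured symbols the replicates, grey bars the genes and vertical ticks the TSS of a divergent gene within 1000 bp; summits of all replicates gather between 2 divergent starts at cuff, piwi and spn-E, and AGO3 and qin carry no point in this window.

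Ordered by signal in the pooled list, the genes ran cuff, piwi, spn-E, vas, del, qin, rhi, AGO3, aub and tej, from 337 to 44.3. cuff and piwi do not differ beyond the replicates, since cuff ranked higher in replicates 1 and 3 and piwi in replicate 2. Both ranked above spn-E in every replicate, and spn-E above vas. Below that the order was not stable, since del ranked above vas in replicate 1, qin above del in replicate 1, and AGO3 above rhi in replicates 1 and 2. In the pooled list the strongest regions of the 10 genes had a median at 31.9% of the list, in a range from 5.28% to 86.8%. The median over the 10294 genes with a pooled region was 29.0%. Under the 2 kb rule the group is thus not set apart by rank. With 500 bp in place of 2 kb, 7 of the 10 genes held a region, and their median was at 23% of the list. A median over all genes was not computed at 500 bp, so this value has no background beside it.

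**Figure D3:**
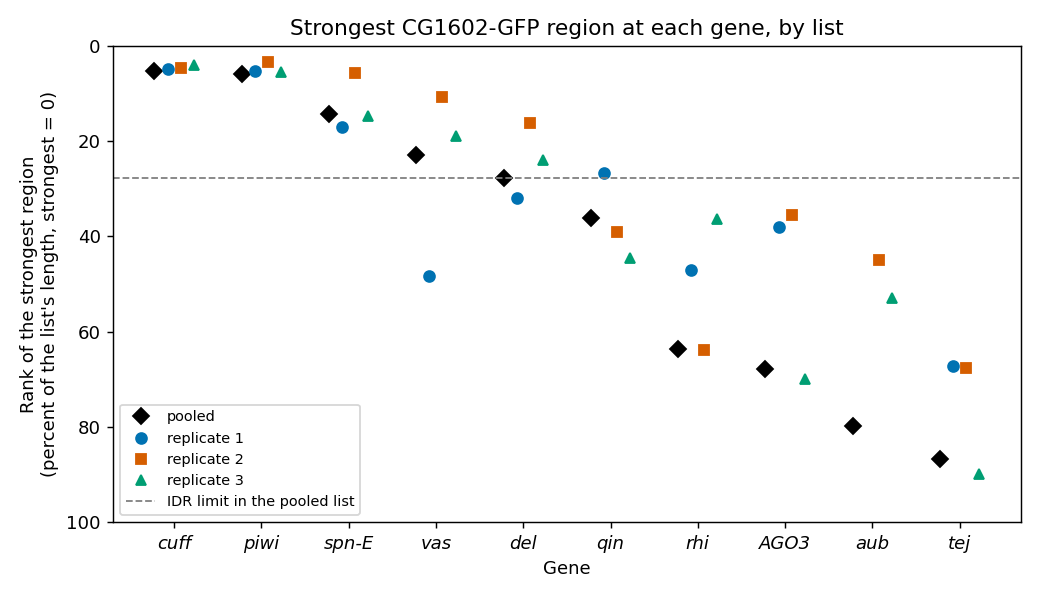
Rank of the strongest region at each gene as a percent of the length of its list (y axis, strongest at the top), for the pooled list and each replicate. The dashed line at 27.6% is the limit of the IDR list in the pooled list; cuff and piwi lie within the strongest 5.88% of the 4 lists, del sits on the line, and vas in replicate 1 lies far below its other points.

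All 10 genes held a pooled region, against 57.5% of all genes, and 22 pooled regions lay at them, 17 of these outside the IDR list. Weak regions 1714 and 1731 bp from a start and in long introns are part of this count. The 3 replicate lists all had a region at 9 of the 10 genes (47.0% of all genes), the exception being aub. A pooled region overlapped in all 3 replicates was found at 8 of them, without aub and AGO3 (42.0% of all genes). A region among the strongest 4599 of every replicate was found at 3 (cuff, piwi and spn-E, 22.3% of all genes). Without replicate 1 such a region was found at 5 (with vas and del), a setting for which no share of all genes was computed. Another gene's TSS was nearer to the summit at 12 of the 22 pooled regions. piwi and vas were the members with an IDR peak to which no other TSS was nearer (2 of 10, against 16.6% of all genes), and vas shares that TSS with solo.

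The 4 genes with an IDR peak all had a divergent promoter, with another gene starting upstream on the opposite strand within 1000 bp, as did aub. Of these 5 genes 4 held an IDR peak, where 42.2% of all genes with a divergent neighbour did. AGO3, rhi, del, qin and tej have no such neighbour, and 0 of these 5 held one, against 20.5% of all genes without. By the rule used, a peak between 2 starts counts for both genes. At vas the divergent start is that of TfIIS, 899 bp away, and the summit lay much nearer to vas, 61 bp upstream of its TSS.

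The other pathway genes, 64 in 6 lists, belong to the piRNA pathway, germ cells and other small RNA pathways. Of these 64 genes 26 (40.6%) held an IDR peak, beside 4 of the 10 genes and 27.9% of all genes. The likeness rests on the 2 kb rule, since 13 of the 64 had such a summit at most 500 bp from a start, beside 4 of the 10 genes and 17.2% of all genes. In nuclear silencing by Piwi 6 of 12 did, led by the gene of heterochromatin protein HP1a (FBgn0003607, signal 1052), wde (789), Mi-2 (475) and HDAC1 (396). The strong peak of the HP1a gene lay 1869 bp upstream of its TSS, nearest to CG8360, and that of wde, a cofactor of the histone methyltransferase Eggless, 546 bp into the gene. The HDAC1 peak lay 1857 bp upstream, nearest to Src64B, and the Mi-2 peak in an intron, nearest to asRNA:CR43889. In the list for piRNA biogenesis on mitochondria 6 of 13 did. They were led by papi (678), a Tudor protein of the outer membrane, the helicase gene armi (423) and the cochaperone gene shu (346). The peaks of armi and shu were nearest to eIF5B and Snap29.

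Genes that act beside Rhino in cluster transcription and export held an IDR peak in 2 of 11 cases, Boot (signal 401) and Hel25E (118), both with another TSS nearer (Uhg4 and Lam). In the nuage and ping-pong list 2 of 8 did, Tdrd3 (637) and the helicase gene bel (139). The lists were drawn up by role, and the place of a gene in a list was not tested here. The stronger Tdrd3 peak lay 1747 bp upstream, nearest to bmm, and a second one (402) 77 bp upstream, nearest to Tdrd3. Germ plasm and germ cell factors did in 5 of 10 cases, pum (284), bgcn (274), ovo (273), nanos (197) and gcl (187), and the peaks given for nanos and gcl were nearest to CG11779 and CG14767. The pum peak of 284 was nearest to lncRNA:CR45196, and the strongest one nearest to pum itself had a signal of 259. The siRNA and miRNA list, for the other small RNA pathways, did in 5 of 10 cases, pasha (1078), r2d2 (446), gw (358), Ranbp21 (188) and AGO1 (109). In pasha, a Microprocessor subunit gene, the peak lay 1812 bp upstream, nearest to Mnat9, and the stronger peak of r2d2 was nearest to Herp. AGO1, the miRNA Argonaute, had the weakest of these peaks, at rank 4534.

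**Figure D4:**
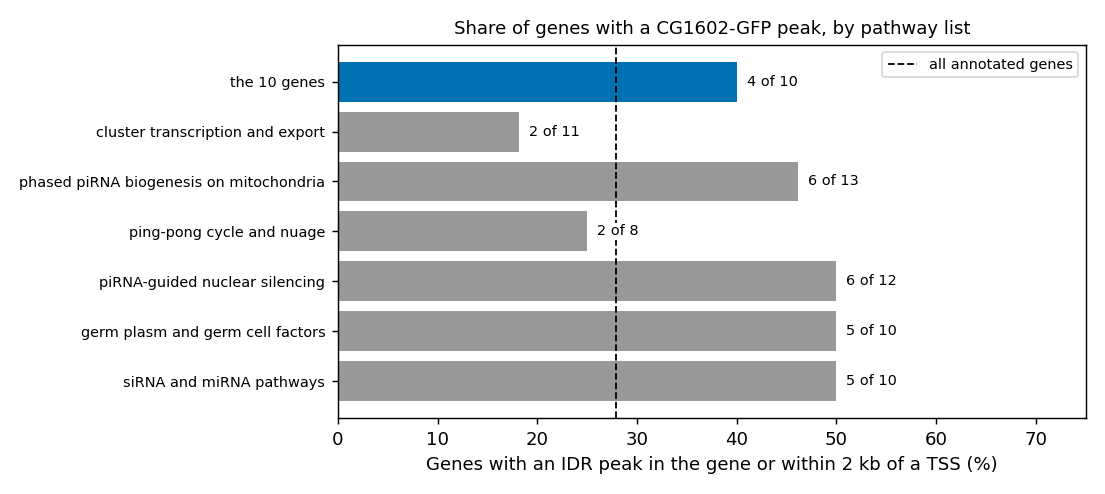
Percent of genes with an IDR peak in the gene or within 2 kb of a TSS, for the 10 genes and 6 other lists, with counts beside the bars. The dashed line is the 27.9% of all annotated genes, and the lists hold 8 to 13 genes, so a single gene moves a bar by several points.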

How the data were processed

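The 5 deposited dm6 region lists were used. The dm3 lists were not analysed here. Per the notes deposited with the files, the regions of a replicate derive from its own alignments plus 1 control alignment that all replicates share, the pooled regions from the 3 replicates together, and the IDR list from these 4. The sources used here give no aligner, peak caller, version or IDR threshold. Fragments were sonicated to a size range of 200 to 800, per the labels. The authors deposited a signal for each region, which ranked the regions within a list, and a q-value as −log10, which entered no result. Depth is unknown, so no counting interval was computed.

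Genes came from Ensembl release 115 (arms 2L, 2R, 3L, 3R, 4 and X, without pseudogenes and transposable elements) and sequence from the RefSeq copy of the same assembly. All regions lay within the arm lengths. Coordinates are counted from 1, and starts are those of all transcripts. A pooled region was matched to the replicate region sharing most bases, at least 1 bp, so a replicate region may match 2 pooled ones. With 1 group no test was run, and counts stand beside the same share of all genes. The assignment rule was tested on simulated data.

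The members and lists were chosen with earlier results of these data known, and 3 listed names were found through another symbol (Boot, Nxf3 and nanos). Named are the 10 genes, genes nearest to their regions, the 12 other pathway genes with the strongest IDR peak, the neighbours in rank of the strongest peak, and any gene behind a count of at most 5. Python 3.11.15, numpy 2.4.6, pandas 2.3.3 and matplotlib 3.10.9 were used.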

Additional observations from a re-analysis of the deposited data

How the results depend on the processing

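The count of 4 genes with an IDR peak stayed at 4 with 500 bp or 5 kb in place of 2 kb, with overlap in place of the summit, without the gene body and with the gene's own start only. Among the stronger 2299 IDR peaks it was 2 (cuff and piwi), as were the count of peaks and of genes with a summit within 500 bp, and 1 gene (piwi) was nearest to its peak. With the summit required to lie in a strongest region of all 3 replicates there were 3 peaks, and 1 gene nearest to one. Leaving out each replicate in turn, with the summit in a strongest region of the remaining ones, gave 3 to 4 genes with a peak, 3 to 4 peaks, 3 to 4 genes with a summit within 500 bp, 1 to 2 genes nearest to a peak, 3 to 5 genes strong in all remaining replicates, 9 to 10 with any region in them and 22 to 24 of the other pathway genes. vas was not counted without replicate 2 or 3, since replicate 1 ranks it low. With a list 10% longer, chosen after seeing the data, del joined and the count was 5; with a list 10% shorter it was 4. The background was 30.3% among protein-coding genes. The median rank was at 25.9% in replicate 2 and at 23.0% of the pooled list with 500 bp, where 7 genes held a region. With 5 kb, 39 of the other pathway genes held an IDR peak, and with 500 bp 18. Summits inside the gene still counted here, unlike in the count by distance from a start alone given above. No share of all genes was computed for these changed windows, nor for the changed lists or replicate sets, so those counts have no background beside them. Without reads, depth limits what can be said of weak regions, and a gene with no region in a list is not shown to be unbound. No paired analysis was possible because there is 1 group.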

Other observations

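Some regions at the 10 genes were found in 1 replicate and not in the pooled list. Replicate 2 had a weak region 207 bp upstream of rhi (signal 10.1, rank 22520) and one 1119 bp upstream of tej (signal 10.7, rank 20217). Replicate 1 had one inside tej, 1211 bp from the TSS (signal 18.5, rank 11817), and one inside cuff, 622 bp from the TSS (signal 18.8, rank 11498). Replicate 3 had one 1756 bp upstream of piwi, nearest to TTLL4A (signal 31.5, rank 7370). Replicates 1 and 2, and not replicate 3 or the pooled list, had a region inside rhi about 3.9 kb from its TSS (ranks 8266 and 17336) and an intronic region of AGO3 about 101 kb from its TSS (ranks 16931 and 24588).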
